A study of Mus musculus with 24 samples.

Results

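Carbonic anhydrases are the zinc enzymes that interconvert carbon dioxide and bicarbonate. This account follows 9 of them, Car2, Car3, Car4, Car5b, Car8, Car9, Car12, Car13 and Car14, through 24 RNA sequencing libraries of mouse C2C12 cells and neonatal brown adipose tissue. They are 9 of the 16 genes with a carbonic anhydrase symbol in the deposited tables, which hold 37041 genes after rows of 1 symbol at overlapping loci were summed. The 9 were chosen with these same libraries in view, so their values and differences are a description, and no p-value is given for them. The measure behind that choice was not stated. Car14, the lowest member by its highest group mean, reached 4.86 FPKM, while the unlisted Car6 and Car11 reached 15.6 and 7.13, so the list does not follow from a threshold on level alone.

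The family is spread over cell compartments. Car2, Car3 and Car13 are cytosolic, and Car5b is mitochondrial, where bicarbonate is the substrate of pyruvate carboxylase and other biotin-dependent carboxylases. Car4 is held on the outer face of the plasma membrane by a lipid anchor, and Car9, Car12 and Car14 span the membrane with their catalytic domain outside the cell. Car8 belongs to the family by sequence but lacks the enzyme activity, and is known as a binding partner of the inositol trisphosphate receptor. In adipose tissue and skeletal muscle Car3 is an abundant protein with little carbon dioxide hydration activity, capillary endothelium is a known site of Car4, and Car9 is a standard target of the hypoxia-inducible factors.

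C2C12 is a mouse myoblast line. Per the labels, control cells and NFIA-expressing cells were sampled on day 0, on day 7 and, on that day, following 4 hours of 10 µM forskolin, an activator of adenylyl cyclase that raises cyclic AMP. NFIA is a DNA-binding protein of the nuclear factor I family. Brown adipose tissue came from wild-type neonates or from neonates labelled NFIA-KO. Each of these 8 groups has 3 libraries of polyA RNA. The labels name no vector or promoter for NFIA, no control construct, no culture medium, no knockout allele and no day of age, and do not say whether libraries of a group came from separate cultures or animals. The spread between libraries may therefore be technical.

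The labels were checked against Nfia itself. In C2C12, Nfia was between 1252 and 10448 FPKM in the 9 NFIA libraries and had group means of 0.660, 1.33 and 1.57 FPKM in the control groups. Nfia was not constant across the NFIA groups, with means of 1269 FPKM at day 0, 3343 at day 7 and 9852 with forskolin. In tissue it went against the label: Nfia was 24.3, 32.8 and 32.6 FPKM in the wild-type libraries and 44.6, 40.1 and 39.4 in those labelled NFIA-KO, and whether the tables count the deleted part was not stated. Every tissue direction given here is between the labels. Dates in the column headers fall in 2015 for all 6 tissue libraries and for the C2C12 library of each group with no number in its title, called replicate 1 here, and in 2016 for the other 12. Exact zeros can be failed estimates, since Fabp4, a leading adipocyte transcript at up to 23064 FPKM in other wild-type tissue, is listed at 0 in 1 of these libraries.

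The genes lie on 5 chromosomes of mm9, the build of the deposited tables. Car13, Car3 and Car2 stand in a row on chromosome 3 with the unlisted Car1, at 14641727 to 14663002 for Car13, 14766217 to 14778459 for Car1, 14863538 to 14872351 for Car3 and 14886426 to 14900769 for Car2. The whole cluster covers 259043 bases, with 14074 bases between Car3 and Car2. Car14 lies farther along chromosome 3 (95697892 to 95708614), Car8 and Car9 on chromosome 4 (8070514 to 8166188 and 43517300 to 43526601), Car12 on chromosome 9 (66561493 to 66614652), Car4 on chromosome 11 (84771288 to 84779546) and Car5b on the X chromosome (160414754 to 160465929). Car14 overlaps Aph1a, Car9 overlaps Gm12454, and Car8 overlaps Gm11799 and AL772336.1. The kit was stranded per the labels, but whether the counting used strand is not given in the sources used here.

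RefSeq promoters on GRCm38.p6 were found for 5 of the 9 members: Car4, Car5b, Car9, Car12 and Car14. Car2, Car3, Car8 and Car13 were not matched. The 4 printed are those of the membrane enzymes Car9 and Car12, whose mRNA was higher at day 7 than at day 0 in both cell types, of Car5b, which differed most between NFIA and control cells at day 7, and of Car14, the member that differed in tissue. Each run is the 250 bases before the annotated start, 5′ to 3′ on the gene's strand, and capitals mark the nuclear factor I half-site TTGGC or its complement GCCAA, and the hypoxia response cores ACGTG and GCGTG or their complements CACGT and CACGC.
Car9 (chr4:43506776-43507025, plus strand): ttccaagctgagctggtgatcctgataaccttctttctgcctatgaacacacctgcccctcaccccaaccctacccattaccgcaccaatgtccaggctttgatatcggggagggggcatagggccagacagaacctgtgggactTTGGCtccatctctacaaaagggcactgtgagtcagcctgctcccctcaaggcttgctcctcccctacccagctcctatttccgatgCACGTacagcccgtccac
Car12 (chr9:66713436-66713685, plus strand): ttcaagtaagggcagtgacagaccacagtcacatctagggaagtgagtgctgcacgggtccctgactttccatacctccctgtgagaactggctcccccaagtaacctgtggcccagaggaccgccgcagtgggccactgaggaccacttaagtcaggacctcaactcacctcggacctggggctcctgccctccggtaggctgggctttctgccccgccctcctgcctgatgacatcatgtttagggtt
Car5b (chrX:164028011-164028260, minus strand): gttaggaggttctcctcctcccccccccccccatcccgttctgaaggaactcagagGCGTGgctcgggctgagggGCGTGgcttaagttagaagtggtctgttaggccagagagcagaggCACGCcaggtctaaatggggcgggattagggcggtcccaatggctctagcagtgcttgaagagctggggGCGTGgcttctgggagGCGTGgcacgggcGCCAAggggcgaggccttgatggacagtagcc
Car14 (chr3:95904686-95904935, minus strand): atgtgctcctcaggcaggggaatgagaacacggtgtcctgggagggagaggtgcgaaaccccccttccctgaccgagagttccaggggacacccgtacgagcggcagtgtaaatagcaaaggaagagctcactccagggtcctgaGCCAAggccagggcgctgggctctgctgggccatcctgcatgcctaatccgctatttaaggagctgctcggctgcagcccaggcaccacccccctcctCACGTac

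Car9 held TTGGC 105 bases and ACGTG 18 bases before its start. Car14 held them 105 and 7 bases before its own. Car5b held TTGGC once, 32 bases before the start, and GCGTG at 194, 175, 130, 61 and 45 bases before it. Neither Car12 nor Car4 (chr11:84957504-84957753) held any of the 3 motifs. These short motifs are common: on either strand TTGGC occurs in 41.5% of 32851 promoters of this length, ACGTG in 16.6% and GCGTG in 28.2%. TTGGC and GCCAA set 5 bases apart, the full palindrome, occurred in 0.0365% of all promoters and in none of the promoters of the 11 family genes matched. A match describes letters in this window and is no evidence of binding.

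**Figure D1:**
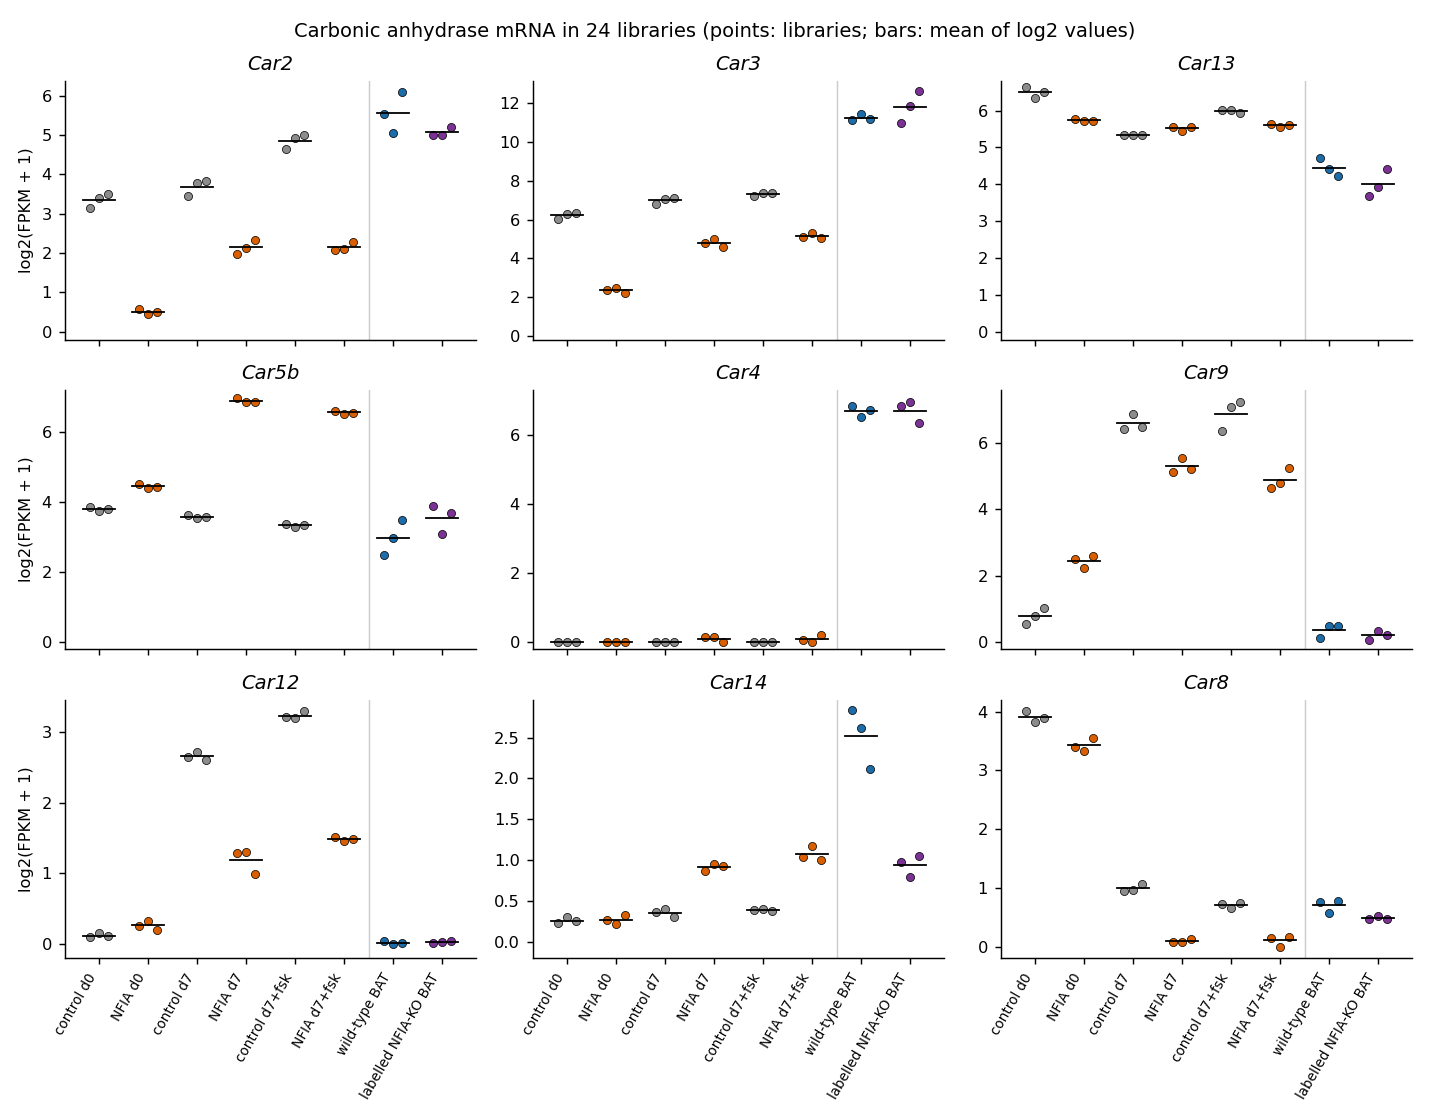
Levels of the 9 carbonic anhydrases on the log2(FPKM + 1) scale in 24 libraries, 1 panel a gene, with groups along the x axis (control grey, NFIA orange, wild-type tissue blue, tissue labelled NFIA-KO purple), a point per library and a bar at the mean of the log2 values. Car4 is near 0 outside tissue. Car9 and Car12 are highest in day 7 cells, Car8 is highest in day 0 cells, and Car5b is highest in NFIA cells at day 7.

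Differences between groups were taken from limma fits of log2(FPKM + 1) over every gene that reached 1 FPKM in 3 or more of the libraries fitted, 14351 genes for the 18 C2C12 libraries and 13618 for the 6 tissue libraries. A gene was called where its Benjamini-Hochberg adjusted p-value over all genes of the fit was under 0.05. Levels are given in FPKM, a length-scaled unit, and differences are on the log2(FPKM + 1) scale, which understates the change of low genes. Of the 9 members, 8 passed the filter in C2C12, all but Car4, and 6 passed in tissue, all but Car8, Car9 and Car12. A gene high in 1 group only can pass through that group alone, so counts of members called describe the list and support nothing.

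At day 0, 6 of the 8 tested members were called between NFIA and control cells, 2 higher and 4 lower in NFIA cells, where 21.2% of all genes tested were called, 12.1% higher and 9.07% lower. At day 7 all 8 were called, 3 higher and 5 lower, where 55.5% of all genes were called, 26.1% higher and 29.4% lower. With forskolin all 8 were again called, 2 higher and 6 lower, against 61.6% of all genes, 28.7% higher and 32.9% lower. The median difference over the tested members was -0.24 at day 0, -1.10 at day 7 and -1.18 with forskolin, beside medians over all genes tested of 0.02, -0.03 and -0.04. These 3 comparisons share no library, but 1 estimate of the spread.

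**Figure D2:**
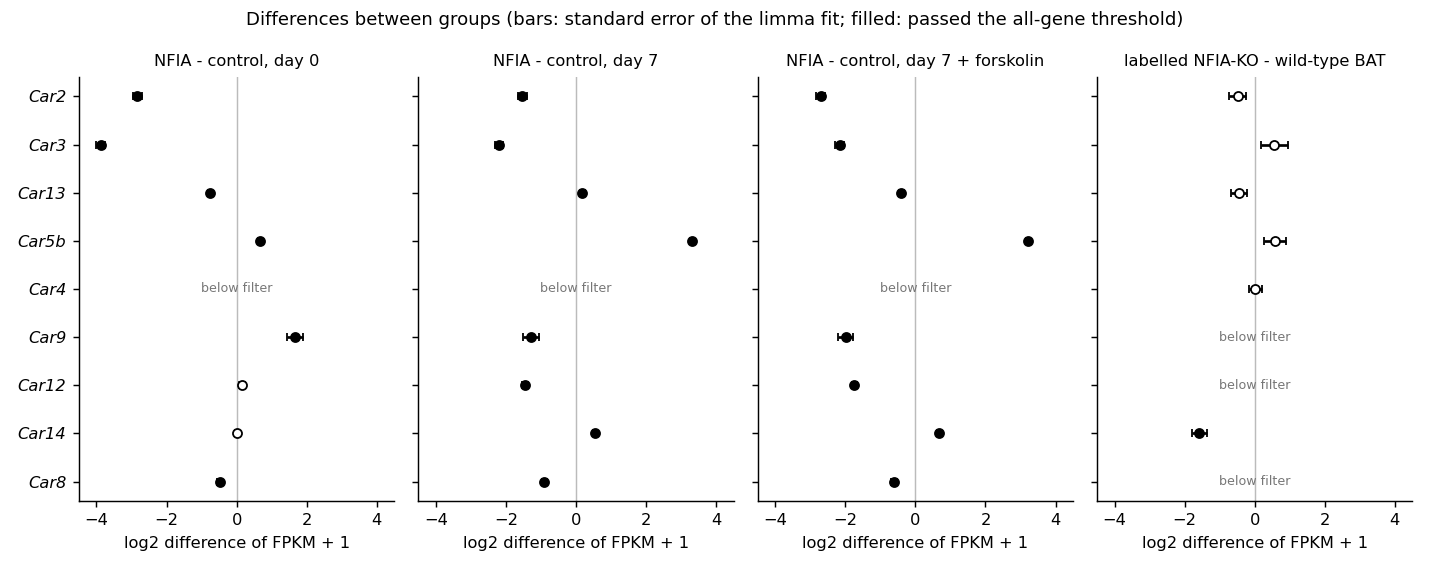
Difference in log2(FPKM + 1) for each carbonic anhydrase in 4 comparisons, with the standard error of the limma fit as bars, filled points for genes called across all genes tested and the words below filter for genes not tested. Car2 and Car3 lie left of 0 in all 3 NFIA comparisons and Car5b lies right of 0, while only Car14 is called in tissue.

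Of the cytosolic enzymes, Car2 and Car3 were lower in NFIA cells at every stage. Car2, the fast and widely expressed isoform, was 7.85, 9.62 and 10.3 FPKM in control cells at day 0 and 0.490, 0.370 and 0.420 in NFIA cells. At day 7 it was 9.83, 12.6 and 13.2 in control cells and 2.97, 3.35 and 4.05 in NFIA cells. All 3 control libraries were above all 3 NFIA libraries at both times, and the differences were -2.84 ± 0.13 (SE, n = 3 per group) at day 0 and -1.53 ± 0.13 at day 7. The gap was therefore 1.31 ± 0.19 smaller at day 7. Forskolin separated the cell types further: control cells rose to 23.9, 29.1 and 31.2 FPKM, while NFIA cells stood at 3.21, 3.28 and 3.86. The forskolin difference of Car2 was 1.17 ± 0.13 in control cells and 0.00 ± 0.13 in NFIA cells, whose values with and without forskolin overlapped.

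Car3 stood at 65.6, 78.5 and 79.7 FPKM in control cells at day 0, against 4.08, 4.63 and 3.68 in NFIA cells. At day 7 control cells had 113, 131 and 136 FPKM and NFIA cells 26.4, 30.7 and 23.3. Every control library was above every NFIA library, by -3.88 ± 0.12 at day 0 and by -2.20 ± 0.12 at day 7. From day 0 to day 7 Car3 was higher by 0.76 ± 0.12 in control cells and by 2.43 ± 0.12 in NFIA cells, from a lower start. With forskolin it was 146, 168 and 166 FPKM in control cells and 34.0, 38.2 and 32.6 in NFIA cells. Its forskolin difference was 0.34 ± 0.12 in control cells, not called although the libraries did not overlap. It was called under quantile normalization (0.33) and with the replicate number as a block (0.34). In NFIA cells it was 0.38 ± 0.12, a call that ended without NFIA day 7 replicate 1 (0.37), without NFIA day 7 replicate 3 (0.28) or without NFIA forskolin replicate 2 (0.31).

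The summed level of 14 skeletal muscle markers was 48.6 to 56.2 FPKM in control cells at day 0 and 29224 to 30324 at day 7. All 14 were called higher at day 7 in control cells (median difference 7.55), where 24.9% of all genes were. All 14 were called lower in NFIA than in control cells at day 7 (median -2.68), where 29.4% of all genes were. Their sum in NFIA cells at day 7 was 3185 to 4344 FPKM. The control mean of Car3 was 74.6 FPKM at day 0, with the low muscle sum, and 127 FPKM at day 7. Fewer cells of a type and less RNA per cell cannot be told apart in bulk libraries, and the part of myotube content in the Car3 and Car2 differences was not tested.

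Car13, also cytosolic and at the other end of the chromosome 3 cluster, differed less between the cell types. It was 99.4, 79.4 and 89.2 FPKM in control cells at day 0 and 53.6, 51.7 and 51.4 in NFIA cells, a difference of -0.76 ± 0.07 without overlap. At day 7 control cells had 39.4, 39.6 and 39.3 FPKM and NFIA cells 46.1, 42.4 and 45.9. That difference, 0.18 ± 0.07, was called, but its call ended in 8 of the 12 alternative settings, among them quantile normalization (0.16), median-of-ratios rescaling (0.21), the numbered libraries alone (0.16) and leaving out any 1 control library (0.18 each). Forskolin was accompanied by a rise in control cells to 64.1, 63.5 and 60.6 FPKM, by 0.66 ± 0.07, and NFIA cells, at 48.3, 46.1 and 47.9, overlapped with their values without forskolin. Over time Car13 fell by 1.15 in control cells (SE 0.07), and in NFIA cells it was lower by 0.22, a call that ended without NFIA day 0 replicate 1, without NFIA day 7 replicate 2 and under both rescalings.

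Car5b, the mitochondrial enzyme, was the member that NFIA cells held at the highest level at day 7. Control cells had 13.5, 12.3 and 12.8 FPKM at day 0 and NFIA cells 21.8, 20.1 and 20.6, a difference of 0.66 ± 0.06. At day 7 the 3 control libraries had 11.2, 10.6 and 10.8 FPKM and the 3 NFIA libraries 124, 114 and 114. With forskolin they had 9.33, 8.72 and 9.22 against 96.3, 90.4 and 92.0. No NFIA library overlapped a control library, and the differences were 3.31 ± 0.06 at day 7 and 3.22 ± 0.06 with forskolin. The difference was larger at day 7 than at day 0 by 2.66 ± 0.08, since Car5b rose by 2.43 ± 0.06 from day 0 to day 7 in NFIA cells and was lower in control cells, by -0.22 ± 0.06, a call that ended under quantile normalization (-0.26). Forskolin came with a lower level in NFIA cells, -0.33 ± 0.06, and in control cells, -0.24 ± 0.06, where the call ended when any 1 of the 6 libraries was left out and under both rescalings. In the same NFIA day 7 cells the summed level of 10 adipocyte markers was 23940 to 26410 FPKM, against 30.6 to 34.6 in control cells. Of these markers 9 of the 9 tested were called higher, where 26.1% of all genes were. The part of adipocyte content in the Car5b difference was not tested.

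Among the membrane enzymes Car4 was a tissue transcript. It was 115, 91.5 and 105 FPKM in wild-type tissue and 114, 123 and 81.0 in tissue labelled NFIA-KO. In C2C12 it was listed at 0 in 14 of the 18 libraries and reached at most 0.150 FPKM, in NFIA cells at day 7 with forskolin. The tissue groups overlapped, with a difference of 0.02 ± 0.18. The 11 endothelial markers all averaged at least 1 FPKM in both tissue groups, with sums of 773 to 917 FPKM in wild-type tissue and 684 to 808 in tissue labelled NFIA-KO. None of the 11 was called between the groups, where 7.14% of all genes were.

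Car9, the hypoxia-inducible membrane enzyme, was low in day 0 cells and in tissue and high at day 7. It was 0.460, 0.740 and 1.05 FPKM in control cells at day 0 and 4.72, 3.75 and 5.04 in NFIA cells. At day 7 the order was the reverse: 84.7, 114 and 86.8 FPKM in control cells and 33.4, 45.9 and 35.9 in NFIA cells. With forskolin control cells had 80.2, 133 and 147 FPKM and NFIA cells 23.9, 26.5 and 36.4. In none of the 3 comparisons did the groups overlap, and NFIA cells differed from control cells by 1.66 ± 0.22 at day 0, by -1.29 ± 0.22 at day 7 and by -1.99 ± 0.22 with forskolin. The day 7 difference lay 2.95 below that of day 0 (-2.95 ± 0.32). From day 0 to day 7 Car9 rose by 5.78 ± 0.22 in control cells and by 2.83 ± 0.22 in NFIA cells. The forskolin differences of Car9, 0.30 ± 0.22 in control cells and -0.41 ± 0.22 in NFIA cells, were not called and the libraries overlapped. The latter was called under quantile normalization (-0.48). The NFIA difference of Car9 changed with forskolin by -0.7 ± 0.32, which was not called. That change was called under quantile normalization (-0.78), in the numbered libraries alone (-0.86) and without control forskolin replicate 1 (-0.97). Gm12454, which overlaps the Car9 locus, went the other way at day 7, with 4.89 ± 0.506 FPKM (SD, n = 3) in NFIA cells and 1.26 ± 0.552 in control cells.

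Car12, a membrane enzyme that works outside the cell like Car9, was also lower in NFIA than in control cells at day 7. It was 0.0700, 0.110 and 0.0800 FPKM in control cells and 0.200, 0.260 and 0.150 in NFIA cells at day 0, near the floor of the tables, and the difference of 0.15 ± 0.08 was not called. These day 0 groups did not overlap, and the difference was called with a pseudocount of 0.1 (0.69). At day 7 control cells had 5.26, 5.56 and 5.09 FPKM and NFIA cells 1.45, 1.46 and 0.990. With forskolin control cells had 8.22, 8.15 and 8.78 and NFIA cells 1.85, 1.75 and 1.81. The groups did not overlap at day 7, and the differences were -1.46 ± 0.08 without and -1.74 ± 0.08 with forskolin. Forskolin was accompanied by a rise of 0.57 ± 0.08 in control cells and of 0.29 ± 0.08 in NFIA cells, where the call ended without NFIA day 7 replicate 3 (0.19). No tissue library was above 0.0300 FPKM for Car12.

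Car14 was low in cells, between 0.160 and 1.26 FPKM, and highest in wild-type tissue. In C2C12 the NFIA day 7 libraries had 0.820, 0.930 and 0.900 FPKM and the control mean was 0.283, a difference of 0.55 ± 0.06. With forskolin the difference was 0.68 ± 0.06, and at day 0, where the groups overlapped, 0.01 ± 0.06. Car14 passed the filter through the 3 NFIA libraries with forskolin, at 1.06, 1.26 and 1 FPKM. At such levels the 2 decimals of the tables limit precision.

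Car8, the family member without enzyme activity, was high in day 0 cells. It was 15.1, 13.3 and 13.9 FPKM in control cells at day 0 and 9.52, 9.07 and 10.7 in NFIA cells. At day 7 it was 0.930, 0.960 and 1.09 in control cells and 0.05, 0.05 and 0.1 in NFIA cells. Both cell types were therefore lower at day 7, with differences of -2.92 ± 0.08 and -3.33 ± 0.08, and control cells were above NFIA cells at both times without overlap. The NFIA difference was -0.49 ± 0.08 at day 0, not called with a pseudocount of 0.1 (-0.53), and -0.90 ± 0.08 at day 7. Tissue levels of Car8 were between 0.380 and 0.710 FPKM. Gm11799, inside the Car8 locus, averaged at most 0.720 FPKM in any group and AL772336.1 was listed at 0 in all libraries.

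Over time in culture 6 of the 8 tested members were called in control cells, 3 higher and 3 lower at day 7, where 48.9% of all genes were called, 24.9% higher and 23.9% lower. Of these calls over all genes 51.0% were higher, and 39.6% after quantile normalization, which moved the median of all genes from 0.02 to -0.11. In NFIA cells all 8 were called, 6 higher and 2 lower, against 56.9% of all genes, 27.5% higher and 29.4% lower. The 2 lower members in NFIA cells were Car8 and Car13, which were also lower in control cells together with Car5b. The comparisons over time and with forskolin share their day 7 groups with each other and with the NFIA comparisons. The NFIA difference itself changed between day 0 and day 7 for all 8 tested members, where it changed for 45.3% of all genes. Between control cells with and without forskolin 4 of the 8 members were called, Car2, Car12 and Car13 higher and Car5b lower, where 3.97% of all genes were called, 1.92% higher and 2.06% lower. In NFIA cells 3 of 8 were called, Car3 and Car12 higher and Car5b lower, against 32.6% of all genes, 15.7% higher and 16.9% lower. The NFIA difference changed with forskolin for Car2 (-1.17 ± 0.19) and Car13 (-0.58 ± 0.10), 2 of 8, where it changed for 20.1% of all genes.

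With only the 12 numbered C2C12 libraries, all of the later header date, the NFIA differences of Car2 were -2.97 at day 0, -1.57 at day 7 and -2.77 with forskolin. Those of Car3 were -3.96, -2.28 and -2.21, those of Car5b 0.66, 3.29 and 3.21, and those of Car9 1.5, -1.27 and -2.14. Each of these kept its direction within the later date, and Car14 did not pass the filter there. The earlier date holds 1 C2C12 library per group and gives no value of its own.

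In brown adipose tissue 1 of the 6 tested members was called, where 7.14% of all genes tested were called, 3.59% higher and 3.55% lower in the libraries labelled NFIA-KO. The count over all genes, 973, rested on single libraries and was 19 without wild-type replicate 1 and 541 without the labelled NFIA-KO replicate 3. The member called was Car14, with 6.13, 5.12 and 3.33 FPKM in wild-type tissue and 0.970, 0.730 and 1.07 in tissue labelled NFIA-KO. The groups did not overlap and differed by -1.58 ± 0.21. The call ended with no filter on low values (-1.58), without wild-type replicate 1 (-1.42) and without the labelled NFIA-KO replicate 2 (-1.51). Aph1a, which overlaps the Car14 locus, was also lower, at 30.1 ± 2.10 FPKM (SD, n = 3) against 46.1 ± 5.45, and how far reads of the overlap enter either value was not tested.

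Car3 was the most abundant carbonic anhydrase in tissue, with 2296, 2762 and 2349 FPKM in wild-type libraries and 2023, 3720.0 and 6368 in those labelled NFIA-KO. The groups overlapped, with a difference of 0.56 ± 0.38, and 1 of the labelled NFIA-KO libraries, replicate 1, was the lowest of all 6. Skeletal muscle markers moved with the labels: of 11 tested, 9 were called higher in tissue labelled NFIA-KO (median difference 3.13), where 3.59% of all genes were. The muscle sums were 72.8, 76.4 and 170 FPKM in wild-type libraries and 2312, 358 and 1220 in the others. The library with the highest muscle sum, labelled NFIA-KO replicate 1, had the lowest Car3, while the highest Car3 was in replicate 3. The part of attached muscle in the Car3 values was not tested.

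Car2 was 44.9, 32.3 and 66.98 FPKM in wild-type tissue and 31.0, 30.9 and 36.0 in tissue labelled NFIA-KO, overlapping groups that differed by -0.49 ± 0.25. Red cells are a known site of Car2, and 10 erythroid markers summed to 5411, 5615 and 4250 FPKM in wild-type libraries and 8458, 7716 and 4445 in those labelled NFIA-KO, with none of the 7 tested called, where 7.14% of all genes were. Slc4a1, 1 of the 10, is also a bicarbonate transporter. The wild-type library with the highest Car2, replicate 3, had the lowest erythroid sum of all 6, and the part of red cells in the Car2 values was not tested. Car13 was 25.1, 20.5 and 17.9 FPKM in wild-type tissue and 11.8, 14.2 and 20.4 in tissue labelled NFIA-KO, and Car5b was 4.56, 6.88 and 10.2 against 13.8, 7.44 and 11.95. Both pairs of groups overlapped, with differences of -0.45 ± 0.22 for Car13 and 0.57 ± 0.31 for Car5b. Car9 was at most 0.420 FPKM in any tissue library.

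Brown adipocyte markers differed between the labels as well. Their sum was 11724 to 16075 FPKM in wild-type tissue and 6149 to 7683 in tissue labelled NFIA-KO. Of 8 tested, 3 were called lower and none higher, where 3.55% of all genes were lower and 3.59% higher. Ucp1, the uncoupling protein that defines brown fat, was 4073 to 7239.6 FPKM in wild-type libraries and 1445 to 1674 in the others. These values stand beside the Car14 difference, and their part in it was not tested. Of the other marker lists, immune cells summed to 35.7 to 56.6 FPKM in wild-type tissue and 38.2 to 85.4 in tissue labelled NFIA-KO, epidermis to 2.47 to 3.09 and 1.09 to 1.48, and nerve and glia to 10.3 to 17.9 and 10.1 to 11.2, with Tubb3 listed at 0 in all 6.

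**Figure D3:**
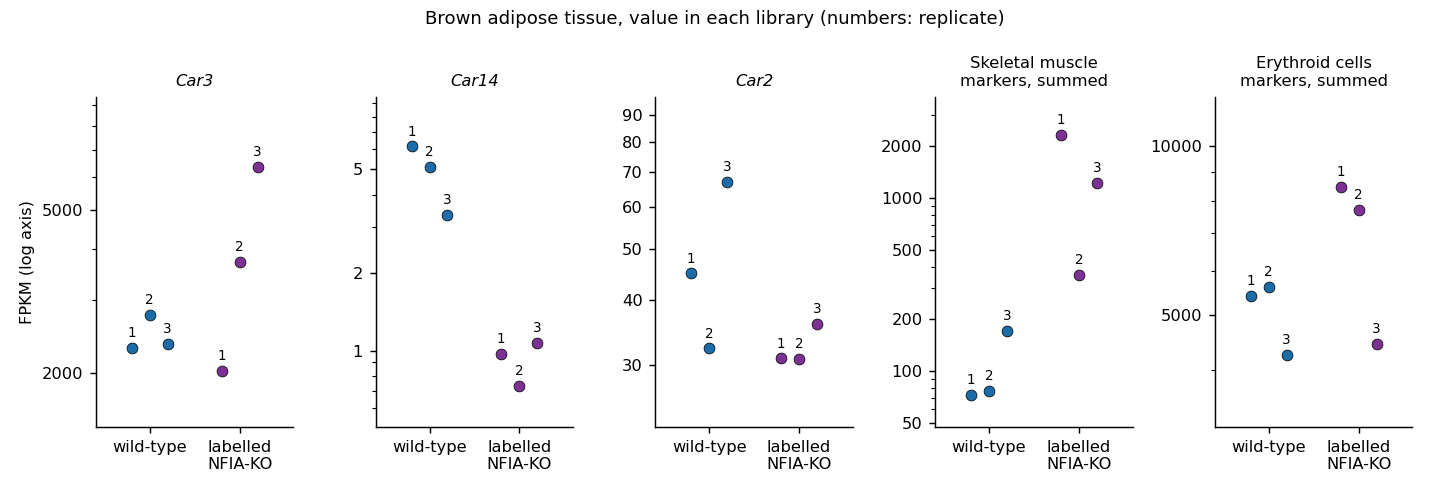
FPKM of Car3, Car14 and Car2 and summed FPKM of skeletal muscle and erythroid markers in each of the 6 brown adipose tissue libraries, on log axes, with the replicate number over each point. Car14 separates the labels without overlap, Car3 and Car2 do not, and the muscle sum is 358 FPKM or more in every library labelled NFIA-KO.

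The order of the 8 groups differed from member to member. Car5b ran from NFIA day 7 (117 FPKM) through NFIA with forskolin (92.9) and NFIA day 0 (20.8) to control day 0 (12.9), each step without overlap, and below that control day 0, tissue labelled NFIA-KO and control day 7 overlapped in turn. Car2 was highest in wild-type tissue (48.1), which overlapped with tissue labelled NFIA-KO (32.6), and that in turn with control cells under forskolin (28.1). Car3 ran without overlap from wild-type tissue (2469) through control forskolin (160), control day 7 (127), control day 0 (74.6), NFIA forskolin (34.9) and NFIA day 7 (26.8) to NFIA day 0 (4.13). Car9 ran from control forskolin (120) and control day 7 (95.3), which overlapped, to NFIA day 7 (38.4) and NFIA forskolin (28.9), which overlapped with each other, and then to NFIA day 0 (4.503), control day 0 (0.750) and tissue. Car13 was highest in control cells at day 0 (89.3) and lowest in tissue (21.2 in wild type and 15.5 in the labelled NFIA-KO), whose groups overlapped. Levels in cells and in tissue are set side by side as values only, since no comparison between them was fitted.

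The make-up of the family's mRNA differed between the cell types. The summed FPKM of all 16 genes was 203 ± 6.86 (SD, n = 3) in control and 109 ± 0.722 in NFIA cells at day 0, 298 ± 26.3 and 245 ± 7.64 at day 7, and 398 ± 51.6 and 221 ± 4.60 with forskolin. In control cells at day 7 Car3 held 42.5% ± 2.56 of the sum and Car9 31.8% ± 3.19, whereas in NFIA cells Car5b held 47.9% ± 2.44 and Car3 10.9% ± 1.20. At day 0 Car13 was the leading gene in both, with 44.0% ± 4.31 in control and 47.7% ± 0.756 in NFIA cells, but Car3 followed with 36.8% ± 4.10 in control cells and Car5b with 19.0% ± 0.684 in NFIA cells. Tissue was dominated by Car3, at 92.7% ± 1.47 in wild type and 94.9% ± 2.83 in tissue labelled NFIA-KO, of sums of 2662 ± 232 and 4209.6 ± 2179 FPKM. Shares are of length-scaled mRNA and say nothing of enzyme activity.

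**Figure D4:**
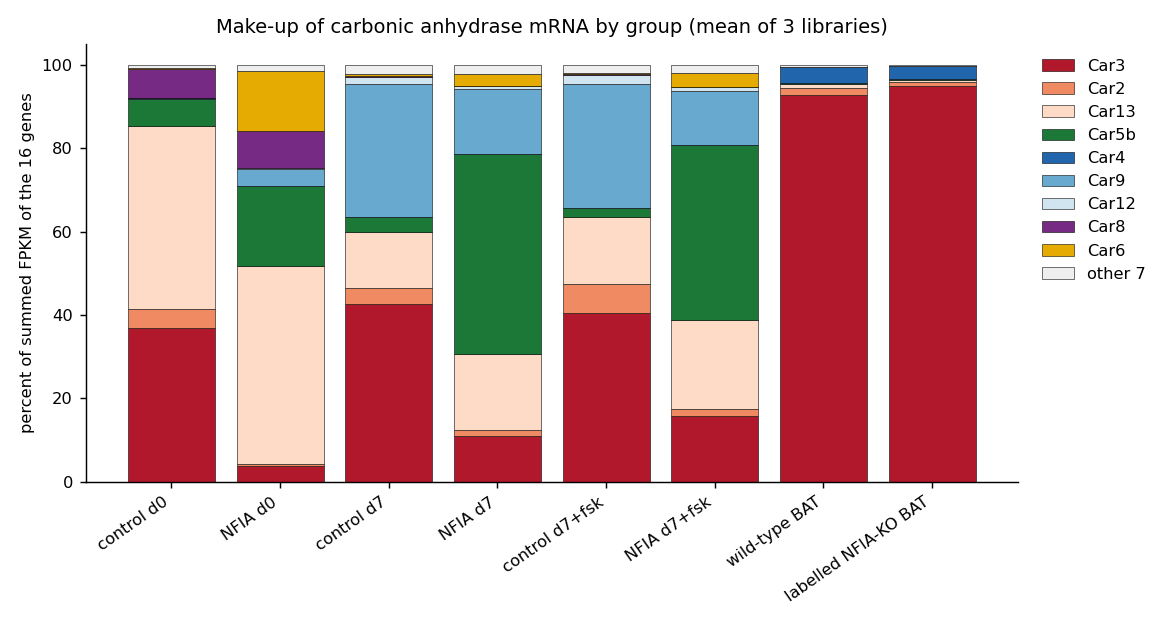
Percent of the summed FPKM of the 16 carbonic anhydrase genes held by each gene, as the mean of 3 libraries per group, in stacked bars that start at 0 and reach 100. The mitochondrial Car5b takes 47.9% in NFIA cells at day 7 against 3.68% in control cells, and Car3 takes 92.7% and 94.9% of the tissue bars.

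Of the 7 unlisted family genes, Car6, the secreted isoform of saliva, had the highest level. It was 14.3, 17.4 and 15.1 FPKM in NFIA cells at day 0 and at most 0.540 in control cells, a difference of 3.70 ± 0.13 without overlap. At day 7 the NFIA mean was 7.03 ± 0.584 FPKM (SD, n = 3) and the control mean 1.48 ± 0.181, so the difference was smaller by 2.01 (-2.01 ± 0.18). Car11, which like Car8 lacks enzyme activity, rose from day 0 to day 7 by 1.67 ± 0.20 in control cells and by 1.09 ± 0.20 in NFIA cells, opposite to Car8. Car1, the red cell isoform inside the chromosome 3 cluster, was 0.920 to 3.44 FPKM in tissue and at most 0.400 in cells, while its neighbours Car3 and Car13 were above 3 FPKM in every C2C12 library. Car15 reached 3.23 FPKM, Car7 0.820, and Car5a and Car10 stayed at or under 0.05.

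Genes that handle the same ions and substrates were followed on 6 lists. These lists were drawn up by function, with earlier results of the series known, and their members were tested in the same fits. Of the bicarbonate-using enzymes, 8 of 8 tested were called higher in NFIA cells at day 7 (median difference 2.10), where 26.1% of all genes were, and 7 of 8 with forskolin (median 1.45), where 28.7% were. At day 0, 2 were higher and 1 lower of 8, where 12.1% and 9.07% of all genes were. The adipocyte markers moved with them, 9 of 9 tested higher at day 7 (median 8.01), and their part in these differences was not tested. Pcx, the mitochondrial pyruvate carboxylase, was 241 ± 25.2 FPKM (SD, n = 3) in NFIA cells and 8.17 ± 0.508 in control cells at day 7, a difference of 4.72 ± 0.11 (limma adjusted p = 4.5e-14). Mccc1, of the mitochondrial methylcrotonyl-CoA carboxylase, was 48.0 ± 2.04 against 9.46 ± 1.46 FPKM (2.24 ± 0.14, limma adjusted p = 2.6e-09). Acaca, the cytosolic acetyl-CoA carboxylase of fatty acid synthesis, was 95.2 ± 16.1 against 20.1 ± 5.83 FPKM (2.22 ± 0.21, limma adjusted p = 2.1e-07). Acacb, its isoform at the mitochondrial surface, was 6.95 ± 0.267 against 0.417 ± 0.170 FPKM (2.49 ± 0.12, limma adjusted p = 1.3e-10). In tissue 1 of 8 was called, where 7.14% of all genes were. It was Pcca of propionyl-CoA carboxylase, at 78.0 ± 10.4 FPKM in tissue labelled NFIA-KO and 150 ± 36.1 in wild type (-0.91 ± 0.21, limma adjusted p = 0.047), a call that ended when any 1 library was left out.

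Bicarbonate transporters, which carry the product across membranes, were mostly low: 7 of 15 passed the filter in C2C12. At day 7, 1 was called higher and 3 lower in NFIA cells, a share of the list close to the 55.5% of all genes called. Slc4a3, an anion exchanger of excitable tissue, was 2.72 ± 0.734 FPKM in NFIA and 31.2 ± 6.55 in control cells (-3.11 ± 0.22, limma adjusted p = 7.8e-09), and Slc4a8 was 1.53 ± 0.755 against 8.997 ± 0.808 (-2.02 ± 0.24, limma adjusted p = 2.8e-06). Slc4a4, a sodium bicarbonate cotransporter, was 5.62 ± 0.964 FPKM in NFIA cells with forskolin and 0.230 ± 0.113 in control cells (2.42 ± 0.11, limma adjusted p = 3.7e-11). None of the 8 tested was called in tissue, where 7.14% of all genes were.

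Of the sodium-proton exchangers and their regulators, 4 of 8 were called higher and none lower at day 0, where 12.1% of all genes were higher and 9.07% lower. The call for Slc9a8 ended in the numbered libraries alone, without control day 0 replicate 2 and without NFIA day 0 replicate 1 or 2. At day 7, 4 were higher and 4 lower, where 26.1% and 29.4% of all genes were. Slc9a3r1, a scaffold that anchors the exchangers at the membrane, was 41.7 ± 7.48 FPKM in NFIA and 6.06 ± 0.724 in control cells at day 7, and 151 ± 18.8 against 5.77 ± 1.22 with forskolin (4.5 ± 0.17, limma adjusted p = 8.2e-12). The endosomal exchanger Slc9a9 was lower in NFIA cells at day 7, at 5.65 ± 0.246 against 15.1 ± 0.336 FPKM (-1.28 ± 0.06, limma adjusted p = 1.8e-10). Monocarboxylate transporters export or import lactate with protons, and 2 of 4 tested were higher and 1 lower in NFIA cells at day 7. Slc16a1 was 50.2 ± 7.08 against 18.6 ± 1.22 FPKM at day 7 and 384 ± 27.1 against 22.5 ± 2.23 with forskolin (4.04 ± 0.12, limma adjusted p = 4.3e-13). Slc16a3, the transporter of glycolytic cells, was lower at day 7, at 7.18 ± 1.69 against 42.4 ± 5.71 FPKM (-2.42 ± 0.20, limma adjusted p = 4.3e-08). Tissue labelled NFIA-KO had less Slc16a1, 38.3 ± 9.22 against 124 ± 41.7 FPKM (-1.64 ± 0.28, limma adjusted p = 0.029), a call that ended without wild-type replicate 1 or 3, without the labelled NFIA-KO replicate 1 or 2, and with no filter.

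The 3 inositol trisphosphate receptors, the calcium channels that Car8 is known to bind, were all called at day 7, 2 higher and 1 lower in NFIA cells, where 55.5% of all genes were called. Itpr1 was 8.40 ± 0.726 FPKM in NFIA and 2.23 ± 0.208 in control cells (1.54 ± 0.11, limma adjusted p = 9e-09), and Itpr3 was 1.92 ± 0.215 against 9.55 ± 0.229 (-1.86 ± 0.08, limma adjusted p = 2.5e-11). From day 0 to day 7 none of the 3 was called higher, with 2 lower in control cells and 1 lower in NFIA cells. Of all genes 24.9% were higher and 23.9% lower in control cells, and 27.5% and 29.4% in NFIA cells.

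Of 18 genes known to be induced by hypoxia, all 18 were called higher at day 7 than at day 0 in control cells (median difference 1.67) and 13 in NFIA cells, with 2 lower (median 1.06), the comparisons in which Car9 and Car12 rose. Of all genes 24.9% and 27.5% were higher in these comparisons. Between NFIA and control cells 8 were called higher and 2 lower at day 0, where 21.2% of all genes were called, 12.1% higher and 9.07% lower. At day 7 the list was divided, with 9 higher and 8 lower, where 55.5% of all genes were called, 26.1% higher and 29.4% lower. With forskolin 8 were higher and 7 lower, against 61.6% of all genes, 28.7% higher and 32.9% lower. Between cells with and without forskolin, 6 of 18 were called higher in control cells and 9 in NFIA cells, with none lower. The shares over all genes were 1.92% higher and 2.06% lower in control cells, and 15.7% and 16.9% in NFIA cells. Car9 was called in neither (0.30 ± 0.22 and -0.41 ± 0.22), and Car12 was higher in both (0.57 ± 0.08 and 0.29 ± 0.08). At day 0, where Car9 was higher in NFIA cells, Ndrg1 was 130 ± 2.17 against 27.3 ± 0.917 FPKM (2.21 ± 0.07, limma adjusted p = 1.6e-11) and Ero1l, an oxidase of the endoplasmic reticulum, was 39.8 ± 3.35 against 11.98 ± 2.04 (1.66 ± 0.10, limma adjusted p = 9.1e-09). At day 7, where Car9 was lower in NFIA cells, Adm, which encodes the vasodilator adrenomedullin, was 1.06 ± 0.132 against 18.2 ± 2.11 FPKM (-3.22 ± 0.16, limma adjusted p = 1.5e-10). P4ha2, a subunit of collagen prolyl hydroxylase, was 26.7 ± 2.28 against 125 ± 2.26 FPKM (-2.19 ± 0.13, limma adjusted p = 1.8e-09). Hk2, a hexokinase, went the other way with forskolin, at 111 ± 9.37 in NFIA against 32.9 ± 1.64 FPKM in control cells (1.72 ± 0.13, limma adjusted p = 1.2e-08). At day 7 without forskolin Ero1l, at 68.5 against 37.2 FPKM, and Egln3, at 142 against 87.0, were also higher in NFIA cells. Where Car9 and Car12 rose over time, all 14 skeletal muscle markers were also called higher (median 7.55 in control, 4.8 in NFIA cells). Between the cell types at day 7 all 14 were lower in NFIA cells (median -2.68), as were Car9 and Car12. The parts of hypoxia and of myotube content in the Car9 and Car12 differences were not tested.

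In tissue 3 of 17 tested hypoxia genes were called higher and 1 lower in the libraries labelled NFIA-KO, where 3.59% of all genes were higher and 3.55% lower. Skeletal muscle markers were higher in the same libraries, 9 of 11 tested (median 3.13), and their part in these calls was not tested. Egln3, a prolyl hydroxylase of the oxygen-sensing pathway, was 12.8 ± 2.09 against 4.38 ± 1.21 FPKM (1.37 ± 0.20, limma adjusted p = 0.022). Pdk1, which restrains pyruvate dehydrogenase, was 136 ± 22.8 against 71.4 ± 6.53 FPKM (0.91 ± 0.16, limma adjusted p = 0.029). Ddit4 was 387 ± 189 against 95.4 ± 27.1 FPKM (1.91 ± 0.41, limma adjusted p = 0.044) and Pgk1 57.1 ± 2.60 against 90.2 ± 12.5 (-0.64 ± 0.13, limma adjusted p = 0.041). All 4 calls ended with no filter on low values and when single libraries were left out, wild-type replicates 1 and 3 and the labelled NFIA-KO replicate 2 among them for each gene. Car9 itself was below the filter in tissue.

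For the 8 members that reach a group mean of 5 FPKM, the genes with the most similar profile were found among 15671 genes by the root mean square difference between centred log2(FPKM + 1) profiles over the 24 libraries. These likenesses are descriptive, since the libraries share groups and the members were chosen on them. Car4 was closest to Cdh5 (0.14) and Pecam1 (0.16), both on the endothelial marker list, on a scale where Car4 itself varied by 2.90 about its mean. Since Car4 was near 0 in every C2C12 library, any transcript confined to tissue at a similar level would score as close. The measure therefore does not tell cell types of the tissue apart. Cdh5 averaged 123 FPKM in wild-type tissue and 101 in tissue labelled NFIA-KO. Car5b was closest to Aldh2 (0.41), a mitochondrial aldehyde dehydrogenase, and Fam110c (0.44), against its own 1.42. Car9 was closest to R3hdml (0.71) and Fgf21 (0.87), a secreted metabolic hormone, against its own 2.63. Fgf21 averaged 66.5 FPKM in control and 16.8 in NFIA cells at day 7. With forskolin its order was opposite to that of Car9, at 52.1 FPKM in control and 85.6 in NFIA cells. Car12 was closest to 2310043M15Rik and Hsf2bp (0.30 each). Krt14, a keratin of basal epidermis, was among the genes close to Car8 (0.38), against its own 1.402. Car2 was closest to S1pr1 (0.70), a sphingosine phosphate receptor, and As3mt (0.75), against its own 1.63. Car13 was closest to 5730494M16Rik (0.23) and Phf6 (0.27), against its own 0.77. In absolute difference, not set against each member's own spread, Car3 had the least close partners, Ndrg2 (0.94) and Art3 (1.10), against its own 3.01.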

How the data were processed

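Deposited FPKM tables, 1 per library with 37305 rows and 2 decimals, come from the authors' TopHat alignments to mm9 and Cufflinks estimates, as named in the submitters' processing notes, from stranded polyA libraries, per the labels. No version, annotation or strand setting is given in the sources used here. The read totals, hence depth and counting intervals, are unknown. Rows of 1 symbol at overlapping loci were summed (264 rows merged). Summed FPKM per library ran from 762822 to 1575522. Limma 3.58.1 in R 4.3.3 was fitted to log2(FPKM + 1) with a variance trend, separately for C2C12 and tissue, on genes that reached 1 FPKM in 3 or more libraries, and p-values were adjusted by Benjamini-Hochberg over all of them. The fit was tested on simulated data. The members, the lists, the tests and the rule for named genes were chosen with earlier results of these data known. That rule took up to 4 called genes of each list per comparison by size of difference, where the higher group averaged 5 FPKM or more with no overlap between libraries, and the 2 most similar genes per member. Not every gene so named is described, and 1 similar gene is not reported here. Alternatives changed the pseudocount, filter, scaling, replicate block and libraries. No reference genome of mm9 was used.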

Additional observations from a re-analysis of the deposited data

Results flagged for a closer look

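These 10 differences are listed here because the NFIA difference of a carbonic anhydrase itself changed between conditions by the interaction term of the limma fit. The values are log2(FPKM + 1) differences of differences and describe genes that were chosen on these libraries. From day 0 to day 7 the NFIA difference moved upward by 1.31 for Car2, 1.68 for Car3, 0.94 for Car13, 2.66 for Car5b and 0.55 for Car14. For Car2 and Car3 this is a smaller deficit in NFIA cells, and for Car5b and Car14 a larger excess. For Car13 the difference crossed 0, from lower to slightly higher in NFIA cells. Over the same interval it moved by -2.95 for Car9, from higher to lower in NFIA cells, by -1.61 for Car12 and by -0.41 for Car8. The call for Car8 ended under quantile normalization (-0.20). With forskolin the NFIA difference moved by -1.17 for Car2 and by -0.58 for Car13, both of which were higher with forskolin in control cells, while their NFIA libraries with and without it overlapped. Nfia itself averaged 1269 FPKM in NFIA cells at day 0, 3343 at day 7 and 9852 with forskolin. The part of the Nfia level in these changes was not tested.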

How the results depend on the processing

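Of 999 recomputed values for 78 differences of the 9 genes, 916 stayed within 1 standard deviation between libraries, 83 moved further and 0 called differences changed sign; 30 calls were lost and 20 gained. The count of members called moved by over 1.5 times in 2 comparisons. For forskolin in NFIA cells it was 3, rose to 5 after quantile normalization, and ranged from 1, without NFIA day 7 replicate 3, to 3 when single libraries were left out. In tissue it was 1, fell to 0 with no filter, and ranged from 0, without wild-type replicate 1 or the labelled NFIA-KO replicate 2, to 1. The replicate block, in which the unnumbered C2C12 library counted as number 1, gave 7 members called against 6 for control cells over time, 6 against 4 for forskolin in control cells, 3 against 2 for the change with forskolin, and equal counts in the other 7 comparisons. Libraries sharing a number correlated between 0.081 and 0.429 in C2C12 and at -0.00912, 0.111 and 0.143 in tissue, and no label says what a number shares. Over all genes, the block called 5159 against 3036 at day 0, 1260 against 570 for forskolin in control cells, and 5041 against 2890 for the change with forskolin. The last was 4556 in the numbered libraries. The forskolin count in control cells was 363 without control day 7 replicate 2 and 361 without control forskolin replicate 2. The tissue count of 973 was 40 with no filter, and 19, 53, 148, 109 and 541 without wild-type replicates 1 and 3 and the labelled NFIA-KO replicates 1, 2 and 3. Of 726 recomputed values for the named partner genes 49 lost their call and 0 changed sign. Where no cause is stated, the cause was not tested. Values near 0 are limited by the 2 decimals of the tables.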

Other observations

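Ramp2, a receptor-modifying protein on the endothelial marker list, was 80.1 to 119 FPKM in NFIA cells at day 7 and 3.39 to 6.57 in control cells, while Car4 reached at most 0.110 FPKM in those libraries and Cdh5 averaged at most 0.140 FPKM in any C2C12 group. With forskolin Ramp2 was 37.8 to 47.9 FPKM in NFIA cells. Ucp1 was 0.0100 to 0.130 FPKM in NFIA cells at day 7 and 2.75 to 3.95 with forskolin, against 4073 to 7239.6 in wild-type tissue.

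Among day 7 cells without forskolin, NFIA cells held 117 FPKM of Car5b and 26.8 of Car3, where wild-type brown adipose tissue held 7.22 of Car5b and 2469 of Car3. The adipocyte marker sums of these groups were 23940 to 26410 FPKM and, in tissue, 29321, 26446 and 6484, the last in wild-type replicate 3, where Fabp4 is listed at 0. The comparison between cells and tissue was not fitted.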
